A study of Homo sapiens with 5 samples.

Results

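Local contacts are taken here as all pairs of 1 Mb bins on the same autosome (chromosomes 1 to 22) whose starts lie 1, 2, 3 or 4 Mb apart, where neither bin is unmeasured or zero throughout. In all, 10260 such pairs were measured in all 5 Hi-C libraries of the study, of 3949455 bin pairs in the matrices. They comprise 2620 pairs at 1 Mb, 2581 at 2 Mb, 2545 at 3 Mb and 2514 at 4 Mb, and all 10260 were above 0 in every library, so that no filter on low values removed any. Of 2894 autosomal bins in the files, 2667 were measured in all libraries, and the 2316 bins with all 8 local partners (4 on each side) carry the values per bin and per chromosome below. The members were chosen by distance alone and not by their signal. The cells are RMG1, an established line from an ovarian clear cell carcinoma, which the labels give as wild type for both genes in the control. The control is 1 library of cells with a control hairpin. The knockout group (KO) is 2 libraries in which ARID1A was disrupted with CRISPR and CAPH2 is wild type, and the knockdown group (KD) is 2 libraries with a hairpin against CAPH2 and wild-type ARID1A. The control thus shares the hairpin method with KD and not with KO. The labels do not say whether replicates are separate cultures or clones, so that the tests measure only the spread between these libraries. The matrices hold no gene level, so that the knockout and the knockdown could not be checked in them.

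As background, in situ Hi-C ligates DNA ends that lie close together in the nucleus, so that the number of ligated reads between a pair of regions reports how often they meet. Contact frequency along a chromosome falls steeply with distance, approximately as a power law whose slope depends on how the fiber is folded, and it is modulated by compartments, in which active (A) and inactive (B) chromatin meet their own kind more often. ARID1A belongs to the BAF (SWI/SNF) complexes, which remodel nucleosomes, and it is often lost in ovarian clear cell carcinoma. CAPH2 (NCAPH2) is the kleisin of condensin II, an SMC complex that extrudes and compacts chromatin loops and helps to keep chromosome territories apart. The study is on ARID1A, the distribution of condensin II and the partition of chromosomes, and the comparisons below ask how far contacts between close neighbours took part.

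The deposited values are contact signal balanced within each library. The local share of a bin or chromosome is its signal at 1 to 4 Mb as a percentage of its row sum without the diagonal, that is, of all its contacts with other bins of the genome. Since it is a share, it also moves when contacts at longer distances or with other chromosomes move. Whole contacts before balancing were recovered from the values, and totals came to 47.9 megacontacts in the control, 31.4 and 32.5 in KO, and 55.7 and 85.0 in KD. A median pair at 1 Mb held 2365 contacts in the control, 1458 and 1412 in KO, and 2712 and 4088 in KD, and at 4 Mb 179 in the control, 116 and 99.0 in KO, and 191 and 289 in KD. Each local share is given for the balanced signal. Calls in recovered contacts are given as counts, with the shares on that scale for some chromosomes and bins only.

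Local contacts made up a larger share of the row sum in each KO library than in the control library, and a smaller share in each KD library. The share was 36.2% in the control, 37.5% and 37.4% in KO (37.5% ± 0.0933, SD, n = 2), and 35.5% and 35.4% in KD (35.5% ± 0.0580, SD, n = 2). KO lay above KD by 2.01 percentage points with no overlap. The exact two-sided permutation test of 2 against 2 libraries gave p = 0.333, the smallest p that this design allows, and KO and KD were not tested against the single control at this level. In recovered contacts the order of KO and the control was not kept. The share was then 36.7% in the control (95% exact binomial interval 36.65% to 36.69%, counting error only), 36.9% and 36.5% in KO, and 36.2% and 36.0% in KD, so that KD remained below the control and KO lay on both sides of it.

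Contacts fell with distance by nearly the same factor in every library. At 1 Mb they made up 24.97% of the row sum in the control, 25.7% and 26.4% in KO, and 24.5% and 24.5% in KD. At 4 Mb they made up 2.07% in the control, 2.21% and 2.02% in KO, and 1.98% in both KD libraries. From 1 to 4 Mb the share thus declined by 91.7% in the control, 91.4% and 92.3% in KO, and 91.9% and 91.9% in KD. The decay slope, the change of log2 signal per doubling of distance, was -1.81 in the control, -1.79 and -1.87 in KO, and -1.83 in both KD libraries. The 2 KO libraries lay on either side of all others (SD 0.061, n = 2), whereas the KD libraries differed by far less (SD 9.00e-05, n = 2). The exact two-sided permutation test of KO against KD gave a difference of 0.0017 and p = 1, with 0.333 as the smallest possible p.

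The replicates of KO parted with distance, which the genome-wide share does not show. Over the 22 chromosomes, the median log2 difference to the control at 1 Mb was 0.032 in KO replicate 1 and 0.081 in replicate 2. At 2 Mb it was 0.044 in replicate 1 and -0.017 in replicate 2, at 3 Mb 0.075 and -0.041, and at 4 Mb 0.093 and -0.050. Both KO libraries lay above the control on 18 chromosomes at 1 Mb, but on 5 at 2 Mb, 1 at 3 Mb and 2 at 4 Mb. On 16, 20 and 19 chromosomes at 2, 3 and 4 Mb, replicate 1 lay above and replicate 2 below the control. The KD libraries moved together, with medians of -0.029 and -0.029 at 1 Mb, -0.029 and -0.039 at 2 Mb, -0.052 and -0.050 at 3 Mb, and -0.077 and -0.072 at 4 Mb. Both KD libraries lay below the control on 22, 21, 22 and 22 chromosomes at the 4 distances.

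**Figure D1:**
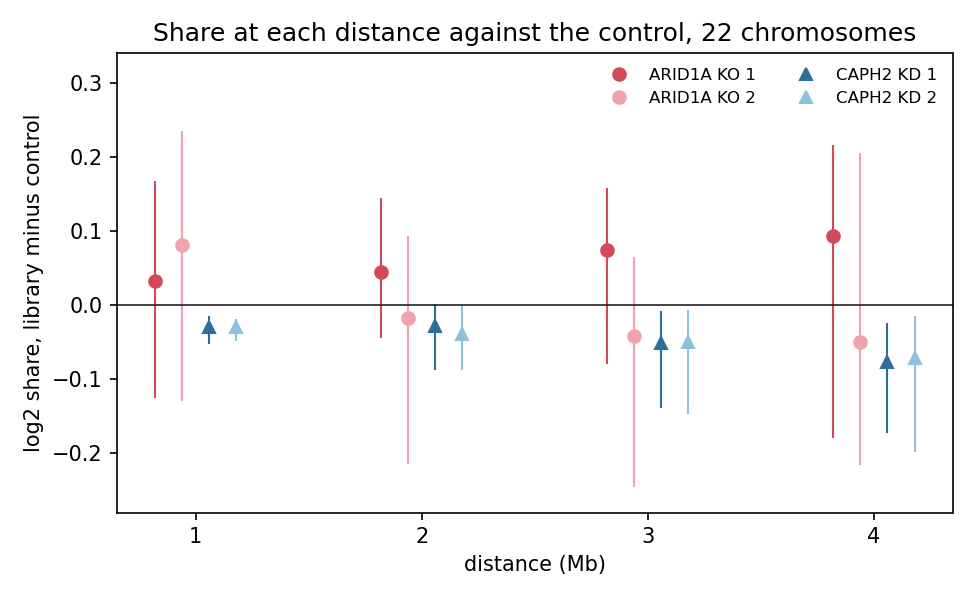
Log2 difference of the share of contacts at 1, 2, 3 and 4 Mb (x axis, Mb) between each KO or KD library and the control, with points at the median and bars from the lowest to the highest of 22 chromosomes. KO replicate 1 rises from 0.032 at 1 Mb to 0.093 at 4 Mb, KO replicate 2 falls from 0.081 to -0.050, and both KD libraries lie below 0 at each distance.

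No single combination of chromosome and distance passed the test. Of 88 combinations, limma called 0 at an adjusted p under 0.05 in KO against the control, in KD against the control and in KO against KD (0% each), with 9, 1 and 13 at an unadjusted p under 0.05. The smallest limma adjusted p was 0.266, 0.755 and 0.0888. Without KO replicate 1 the counts were 68, 74 and 49, and without KO replicate 2 they were 74, 74 and 84. Chromosome 18 had KO on 1 side and all other libraries on the other. At 1 Mb it held 27.5% of its row sum in the control, 30.7% and 32.3% in KO, and 26.8% and 26.7% in KD. At 4 Mb it held 2.52% in the control, 2.93% and 2.91% in KO, and 2.45% and 2.49% in KD. Both KO libraries lay above all others at both distances. Chromosome 19 held 23.9% in the control at 1 Mb, 21.9% and 21.9% in KO, and 23.1% and 23.1% in KD, with KO below all others. On chromosome 21 both KO libraries were the lowest at 4 Mb, with 2.59% in the control, 2.29% and 2.31% in KO, and 2.36% and 2.33% in KD.

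Chromosome by chromosome, balanced local shares were called higher in KO than in the control on many chromosomes and lower on chromosome 19. Limma called 12 of 22 chromosomes in KO against the control (54.5%), of which 11 were higher (2, 3, 4, 5, 7, 8, 10, 11, 13, 14 and 18) and 1 lower (19). The median log2 difference was 0.041. Both KO libraries lay above the control on 17 chromosomes (77.3%), below on 3 (13.6%) and on either side on 2. The highest differences were on chromosomes 18, 13 and 11, and the lowest on 19, 22 and 17.

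The local share of chromosome 18 was 40.8% in the control, 45.4% and 46.7% in KO, and 39.9% and 39.8% in KD. Both KO libraries stood above the others, with a log2 difference to the control of 0.17 (SE 0.020, limma adjusted p = 0.00144). On chromosome 13 the share was 35.9% in the control, 40.1% and 37.4% in KO, and 35.2% and 35.2% in KD. KO replicates differed more there than on chromosome 18, and the difference was 0.11 (SE 0.036, limma adjusted p = 0.0367). Chromosome 11 held 36.7% in the control, 39.0% and 38.2% in KO, and 36.0% and 36.0% in KD, a difference of 0.075 (limma adjusted p = 0.02005). Chromosomes 13 and 18 are known for few genes for their size, and chromosome 19 for the highest gene density.

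Chromosome 19 held 32.7% in the control, 30.8% and 29.4% in KO, and 31.3% and 31.3% in KD. It was lowest in KO, at -0.12 (SE 0.028, limma adjusted p = 0.02005) against the control. On chromosome 22 the share was 33.6% in the control, 33.2% and 32.0% in KO, and 32.5% and 32.3% in KD, so that KO and KD overlapped. On chromosome 17 it was 31.2% in the control, 30.8% and 30.2% in KO, and 29.8% and 29.8% in KD. Neither chromosome 22 (-0.043) nor chromosome 17 (-0.030) was called in KO against the control.

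**Figure D2:**
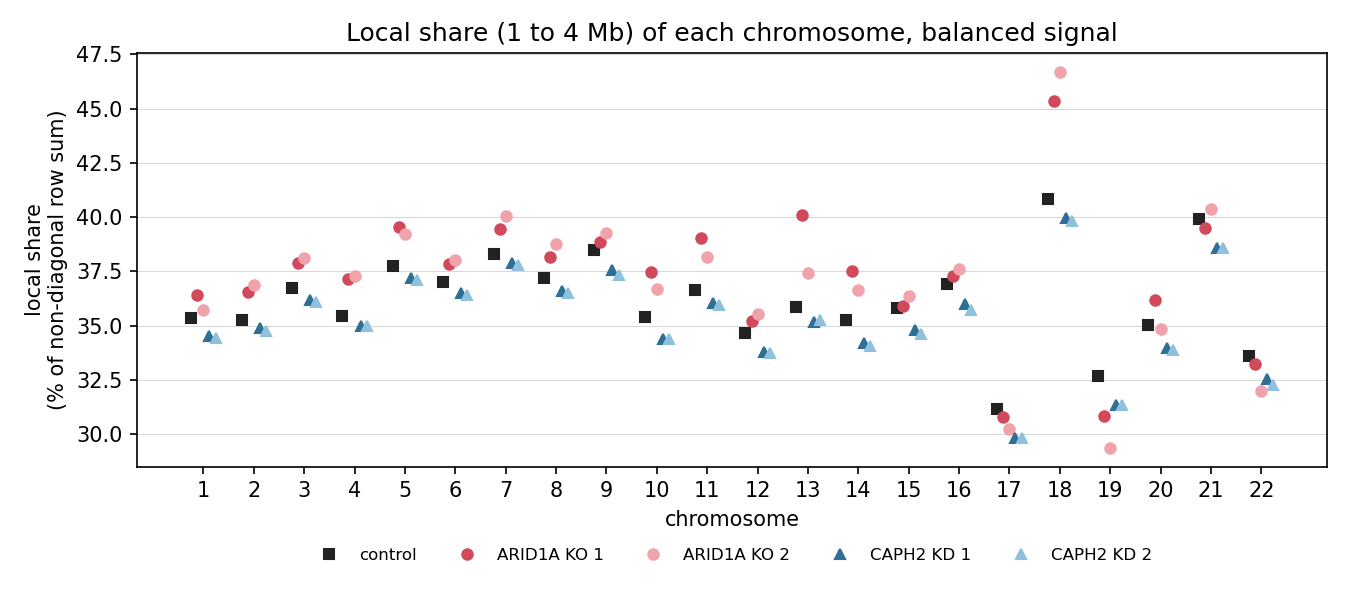
Local share at 1 to 4 Mb (y axis, percent of the row sum without the diagonal) for chromosomes 1 to 22 (x axis), with 1 point for each of the 5 libraries. On chromosome 18 the KO libraries stand at 45.4% and 46.7%, above 40.8% in the control, and on chromosome 19 at 30.8% and 29.4%, below 32.7%.

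In KD, local shares were lower on all 22 chromosomes in both libraries (100%), by small amounts. The log2 difference to the control ran from -0.064 to -0.018, with a median of -0.037. Limma called 0 of 22 chromosomes (0%), with 8 at an unadjusted p under 0.05 and a smallest adjusted p of 0.130. The lowest differences were on chromosomes 17 (-0.064, SE 0.017), 19 (-0.060) and 22 (-0.052), whose values are given above. The differences nearest to 0 were on chromosomes 7, 2 and 4. The share of chromosome 7 was 38.3% in the control, 39.4% and 40.0% in KO, and 37.9% and 37.8% in KD. Chromosome 2 held 35.3% in the control, 36.5% and 36.9% in KO, and 34.9% and 34.7% in KD, and chromosome 4 held 35.5% in the control, 37.2% and 37.3% in KO, and 35.0% and 35.0% in KD. Fits without either KO library, in which the spread comes from a closer set, called all 22 chromosomes as lower in KD. The comparison with 1 control library thus turns on which spread is used. The direction also depends on the denominator. With the row sum restricted to contacts of the same chromosome, the KD mean lay above the control genome-wide. It then also lay above the control on each chromosome named here (2, 4, 7, 17, 19 and 22).

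Between KO and KD, which do not share a single library, more chromosomes were called than in either comparison with the control. Limma called 21 of 22 chromosomes (95.5%), 20 of them higher in KO (90.9%) and 1, chromosome 19, lower (4.55%), and chromosome 22 was not called. KO lay above KD in both libraries of each on 20 chromosomes (90.9%) and below on 1 (4.55%). The highest differences were on chromosomes 18 (0.21, SE 0.017, limma adjusted p = 0.000122), 13 (0.14, adjusted p = 0.00365) and 14 (0.12, adjusted p = 0.000875). Chromosome 14 held 35.2% in the control, 37.5% and 36.6% in KO, and 34.2% and 34.1% in KD. The lowest were on chromosomes 19 (-0.058, limma adjusted p = 0.0403), 22 (0.0090) and 17 (0.034, adjusted p = 0.0470).

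These counts depend on the libraries in the fit and on the denominator. Without KD replicate 1 or 2 the calls in KO against KD fell to 7 and 6, and without KO replicate 1 or 2 they were 21 and 22. In KO against the control they were 3 without either KD library, 21 without KO replicate 1 and 18 without replicate 2. With the row sum restricted to contacts of the same chromosome, limma called 0 chromosomes in either comparison (8 in KO against the control and 0 in KO against KD at an unadjusted p under 0.05), and 0 with pairs at 2 to 4 Mb alone (0 and 1 at an unadjusted p under 0.05). After the median over chromosomes was taken out of each library, 5 chromosomes were called in KO against the control, 1 higher and 4 lower, and 4 in KO against KD, 1 higher and 3 lower.

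The number of contacts that a chromosome gave moved with its local share in KO. Relative to the control and to the total of each library, recovered contacts on chromosome 18 were lower, with log2 differences of -0.59 and -0.63 in the KO libraries, and on chromosome 13 with -0.52 and -0.13. Those on chromosome 19 were higher, with 0.60 and 0.48, and the mean of the KO libraries was 0.50 on chromosome 22 and 0.30 on chromosome 17. In KD the mean stayed between -0.068 and 0.025 on every chromosome. Over the 22 chromosomes, the log2 difference of the balanced local share in KO went down as contacts went up (Pearson r -0.94, and -0.92 over the 21 without chromosome 18). In recovered contacts the same r was 0.15. In KD it was 0.87 on the balanced scale and 0.92 in recovered contacts. These r describe chromosomes of the same libraries, which share their depth and the control, and the part of contact number in the shares was not tested.

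In recovered contacts, fewer chromosomes were called in both comparisons of KO, and more in KD against the control. None of the 12 chromosomes called in KO against the control on the balanced scale was called again. Limma called 1 of 22 in KO against the control (4.55%), which was chromosome 21, lower by -0.068 (adjusted p = 0.0185). Its local share in recovered contacts was 40.1% in the control, 38.2% and 38.2% in KO, and 39.0% and 38.8% in KD, against a balanced share of 39.9% in the control, 39.5% and 40.4% in KO, and 38.6% and 38.6% in KD. In KD against the control 3 chromosomes were called, all lower (13.6%): 10, 15 and 21. In KO against KD 12 were called (54.5%), 11 of them higher in KO and chromosome 21 lower, and 10 chromosomes were called higher on both scales. Chromosome 18 remained among these, with 38.3% in the control, 38.7% and 38.9% in KO, and 37.4% and 37.2% in KD, and a log2 difference of 0.056 between KO and KD (limma adjusted p = 0.0104). Its difference between KO and the control came down to 0.018 (limma adjusted p = 0.632). Chromosome 13 held 38.9% in the control, 39.0% and 38.9% in KO, and 38.6% and 38.5% in KD. It was called neither in KO against the control (0.0026, limma adjusted p = 0.820) nor between KO and KD (0.015, adjusted p = 0.0790). Chromosome 19 turned its direction between KO and KD, with 31.8% in the control, 32.7% and 30.5% in KO, and 30.01% and 30.3% in KD (0.066, limma adjusted p = 0.157). Chromosome 22 turned against the control, with 32.0% in the control, 34.1% and 32.2% in KO, and 30.7% and 30.7% in KD, and was called between KO and KD (0.11, adjusted p = 0.0371).

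**Figure D3:**
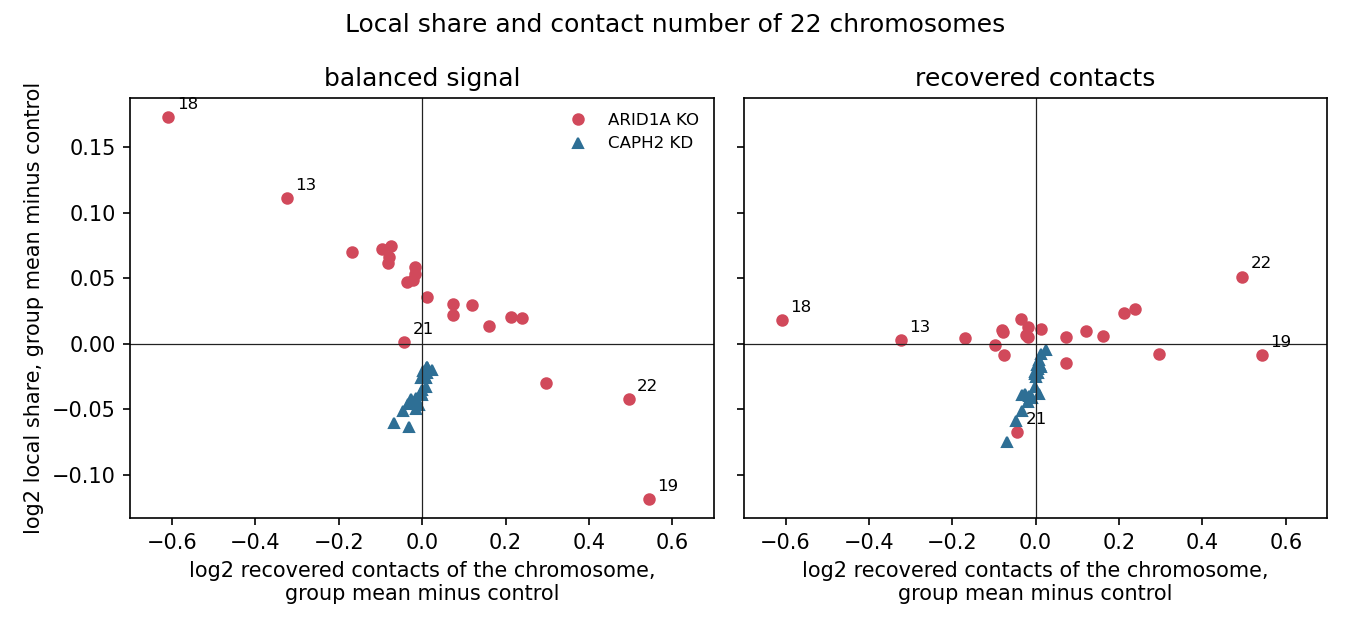
Log2 difference of the local share to the control (y axis) against the log2 of recovered contacts of the chromosome relative to the control (x axis) for 22 chromosomes, on the balanced scale and in recovered contacts, with circles for the KO mean and triangles for the KD mean. On the balanced scale the KO points run from chromosome 18 (0.17 at -0.61) to chromosome 19 (-0.12 at 0.54), and in recovered contacts the same chromosomes lie at 0.018 and -0.0088.

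The slope of decay differed more between chromosomes than between groups. In the control it ran from -2.03 on chromosome 22 to -1.69 on chromosome 4. Limma called 0 of 22 chromosomes in KO against the control, KD against the control and KO against KD (0% each), with 0, 0 and 1 at an unadjusted p under 0.05. On 20 of 22 chromosomes, KO replicate 1 had a flatter slope than the control and replicate 2 a steeper one, and both were steeper on 2 (9.09%). Both KD libraries were steeper than the control on 21 (95.5%). Without KO replicate 1 limma called 22, 15 and 20 chromosomes in the 3 comparisons, and without replicate 2 it called 17, 15 and 18. The KO replicates go opposite ways in most of these, so that the direction of a call against the control turned with the library kept.

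Chromosome 22 had the steepest decay, with slopes of -2.03 in the control, -1.91 and -2.06 in KO, and -2.10 and -2.11 in KD. It had the largest difference between KO and KD (0.12, SE 0.050, limma adjusted p = 0.528). Chromosome 17 followed, with -2.01 in the control, -1.93 and -2.03 in KO, and -2.05 and -2.07 in KD. Chromosome 20 gave -1.93 in the control, -1.84 and -2.01 in KO, and -1.98 and -1.99 in KD, so that KO spanned all others. On chromosome 21 both KO libraries were the steepest, with -1.75 in the control, -1.80 and -1.84 in KO, and -1.78 and -1.79 in KD. Chromosome 4 had the flattest decay, with -1.69 in the control, -1.69 and -1.77 in KO, and -1.70 and -1.70 in KD. The remaining differences of KO to the control with the highest values were on chromosomes 22 (0.042), 17 (0.028) and 1 (0.0061), and with the lowest on 21 (-0.076), 4 (-0.037) and 7 (-0.035). In KD they were lowest on chromosomes 22 (-0.076), 16 (-0.066) and 20 (-0.058) and nearest to 0 on 18 (-0.00099), 13 (-0.0043) and 2 (-0.0048). Between KO and KD they were lowest on 21 (-0.033), 13 (-0.029) and 4 (-0.027), all within the SE.

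**Figure D4:**
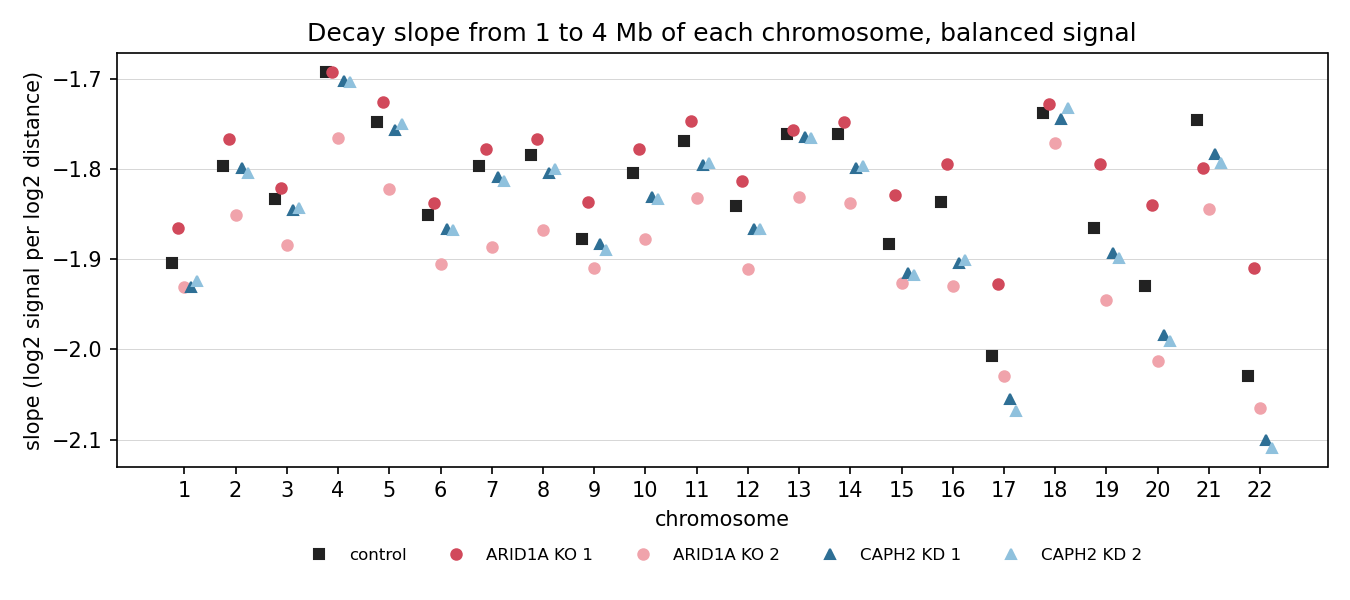
Decay slope from 1 to 4 Mb (y axis, change of log2 signal per doubling of distance) for chromosomes 1 to 22 (x axis), with 1 point per library. Chromosome 22 is steepest, with -2.03 in the control, and the KO replicates lie on either side of the control on 20 of 22 chromosomes.

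Single bins varied far more in local share than groups did. In the control the share ran from 14.8% to 57.1% over 2316 bins, with a median of 36.2%. The order of bins was kept between libraries. Pearson r of the log2 share over the 2316 bins was 0.997 between the KD replicates, 0.991 and 0.992 between the control and KD, 0.957 between the KO replicates, and 0.949 and 0.964 between the control and KO. These r describe bins that share local partners. The SD of the log2 difference between replicates was 0.088 in KO and 0.020 in KD, and counts of contacts differed between replicates beyond sampling noise in both groups (chi-square per degree of freedom 51.8 and 4.24). Recovered contacts per bin differed by over 1.5-fold between the KO libraries in 88 bins, of which 32 were on chromosome 13 and 23 on chromosome 11, and in 0 bins between the KD libraries.

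The 5 lowest mean shares all lay on chromosome 17, and the 5 highest on chromosomes 7, 17 and 19. The bin chr17:55000001-56000000 (hg19, as all coordinates here) had the lowest mean share, with 14.8% in the control, 13.7% and 14.1% in KO, and 14.4% and 14.1% in KD. It gave 4.31 times the contacts of a median bin in the control, 5.76 times in both KO libraries, and 4.09 and 4.21 times in KD. In recovered contacts its share was 27.6% in the control, 26.2% and 27.1% in KO, and 26.8% and 26.6% in KD, in each library well above its share on the balanced scale. The next lowest were chr17:46000001-47000000 (mean over 5 libraries 16.3%), chr17:62000001-63000000 (16.7%), chr17:54000001-55000000 (16.98%) and chr17:57000001-58000000 (17.6%). At the other end, chr19:20000001-21000000 had 57.1% in the control, 55.8% and 57.6% in KO, and 55.3% and 56.2% in KD. That bin gave 0.266 times the contacts of a median bin in the control. It was followed by chr17:13000001-14000000 (mean 54.4%), chr7:110000001-111000000 (53.6%), chr17:14000001-15000000 (53.5%) and chr7:95000001-96000000 (52.9%).

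Between KO and KD, many bins differed, nearly all of them higher in KO. Limma called 586 of 2316 bins (25.3%), 576 higher (24.9%) and 10 lower (0.432%), with 1085 at an unadjusted p under 0.05. In KO against the control and in KD against the control it called 0 bins (0% each), with 605 and 140 at an unadjusted p under 0.05. In recovered contacts 704 bins were called between KO and KD (30.4%), 658 higher (28.4%) and 46 lower (1.99%). Of the bins higher in KO, 250 were called on both scales, 43.4% of the balanced and 38.0% of the recovered calls, and of the lower bins 2 were, of 10 and of 46. Both KO libraries lay above the control in 1355 bins (58.5%) and below in 400 (17.3%), and both KD libraries lay above it in 257 (11.1%) and below in 1788 (77.2%). KO lay above KD in both libraries of each in 1626 bins (70.2%) and below in 122 (5.27%). The count depends on both KD libraries being in the fit: without KD replicate 1 or 2 limma made 0 calls (306 and 300 at an unadjusted p under 0.05), and without KO replicate 1 or 2 there were 1784 and 1764. With the replicate number as a block 169 bins were called between KO and KD.

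The 5 largest rises between KO and KD among called bins lay on chromosomes 14 and 18. The bin chr14:98000001-99000000 held a local share of 36.2% in the control, 43.3% and 43.3% in KO, and 34.5% and 33.7% in KD, a log2 difference of 0.34 between KO and KD (SE 0.022, limma adjusted p = 0.0252). At 1 Mb alone its share was 30.3% in the control, 35.1% and 37.3% in KO, and 29.6% and 29.0% in KD, so that the separation is already there between direct neighbours. It gave 1.48 times the contacts of a median bin in the control, 1.07 and 1.04 times in KO, and 1.49 and 1.51 times in KD. In recovered contacts the share was 40.7% in the control, 46.8% and 45.3% in KO, and 38.9% and 38.4% in KD (0.25, limma adjusted p = 0.0179), so that KO stood above the others on both scales.

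The bin chr18:43000001-44000000 was both high in KO and low in KD. It held 37.4% in the control, 40.6% and 41.2% in KO, and 32.8% and 32.4% in KD, and in recovered contacts 35.4% in the control, 36.3% and 36.0% in KO, and 30.8% and 30.4% in KD (0.24, limma adjusted p = 0.0175). At 1 Mb it held 24.5% in the control, 26.0% and 27.0% in KO, and 20.7% and 20.1% in KD. In the local share, the fall in KD was the larger part on both scales. The bin had log2 differences to the control of -0.20 in KD and 0.13 in KO, and -0.21 and 0.029 in recovered contacts. Its neighbour chr18:42000001-43000000 held 41.0% in the control, 45.8% and 45.0% in KO, and 36.9% and 35.9% in KD. These neighbours share local pairs and are not independent. They also had, with chr15:44000001-45000000, the smallest p in KD against the control. The bin of chromosome 15 held 22.3% in the control, 21.9% and 22.5% in KO, and 19.8% and 20.2% in KD, with both KD libraries below all others.

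Another stretch of chromosome 18 lay at chr18:24000001-26000000. Its lower bin held 41.9% in the control, 49.0% and 50.5% in KO, and 39.6% and 39.1% in KD, and its upper bin 44.1% in the control, 50.01% and 52.8% in KO, and 41.4% and 40.4% in KD. The log2 differences between KO and KD were 0.34 and 0.33, and 0.16 and 0.19 in recovered contacts. The smallest p in KO against the control came from chr18:23000001-24000000, chr18:69000001-70000000 and the bin of chromosome 14 above. The former held 40.2% in the control, 48.4% and 47.8% in KO, and 39.2% and 39.1% in KD. The bin at 69 Mb held 41.9% in the control, 49.8% and 49.4% in KO, and 41.6% and 42.1% in KD, so that in both bins KD lay near the control. On chromosome 18, 54 of 58 bins were called higher in KO than in KD and 0 lower, against 24.9% of all bins higher. In recovered contacts 21 of the 58 were higher and 2 lower, nearer to the 28.4% of all bins higher on that scale.

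Of the 10 bins called lower in KO than in KD, the 5 largest falls included 4 bins of chromosome 19. The bin chr19:11000001-12000000 held 25.3% in the control, 21.9% and 20.6% in KO, and 24.2% and 24.5% in KD (-0.20, limma adjusted p = 0.0352). Its difference was 0.025 in recovered contacts, the other direction. The same turn was found at chr19:4000001-5000000, with 35.7% in the control, 29.3% and 30.7% in KO, and 32.8% and 33.9% in KD, and at chr19:45000001-46000000, with 21.9% in the control, 19.6% and 19.4% in KO, and 21.2% and 21.2% in KD. It was not found at chr19:8000001-9000000, with 36.7% in the control, 32.8% and 32.4% in KO, and 36.1% and 35.8% in KD (-0.14, and -0.015 in recovered contacts). The fifth bin, chr6:26000001-27000000, was lower on both scales. It held 30.8% in the control, 28.8% and 27.9% in KO, and 31.1% and 32.4% in KD (-0.16, limma adjusted p = 0.0352), and in recovered contacts 30.7% in the control, 28.9% and 28.4% in KO, and 30.9% and 32.1% in KD (-0.14, adjusted p = 0.0279).

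Other bins called on both scales were chosen after their values were seen. The bin chr10:100000001-101000000 held 20.9% in the control, 24.9% and 25.7% in KO, and 20.5% and 20.1% in KD. The bin chr1:158000001-159000000 held 34.2% in the control, 39.0% and 37.4% in KO, and 32.4% and 31.6% in KD. On chromosome 2, chr2:41000001-42000000 held 25.2% in the control, 29.6% and 29.5% in KO, and 25.4% and 24.7% in KD. In these 3 bins both KO libraries were above every other library. The other bin lower on both scales, chr1:153000001-154000000, held 31.6% in the control, 29.2% and 29.5% in KO, and 31.4% and 31.6% in KD.

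Slopes per bin ran from -3.33 to -0.353 in the control, with a median of -1.84. Limma called 0 of 2316 bins in KO against the control, KD against the control and KO against KD (0% each), with 122, 22 and 339 at an unadjusted p under 0.05. Without KO replicate 1 the counts were 611, 3 and 813, and without replicate 2 they were 675, 3 and 1161. The steepest decay lay at chr1:49000001-50000000, with -3.33 in the control, -2.99 and -3.32 in KO, and -3.61 and -3.63 in KD. It was followed by chr22:34000001-35000000 (mean -3.05), chr1:50000001-51000000 (-3.04), chr17:32000001-33000000 (-3.04) and chr1:53000001-54000000 (-2.91). The flattest lay at chr10:51000001-52000000, with -0.353 in the control, -0.396 and -0.266 in KO, and -0.550 and -0.373 in KD. Then came chr4:118000001-119000000 (mean -0.632), chr4:122000001-123000000 (-0.643), chr2:80000001-81000000 (-0.934) and chr15:89000001-90000000 (-0.952).

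The bin chr8:142000001-143000000 had the smallest p for a slope between KO and KD. Its slope was -2.76 in the control, -2.40 and -2.504 in KO, and -3.05 and -3.01 in KD, a difference of 0.58 (SE 0.059, limma adjusted p = 0.124). Its share at 4 Mb was 0.862% in the control, 1.19% and 1.10% in KO, and 0.488% and 0.549% in KD, from 74.5, 93, 71, 50 and 89 contacts. The groups were ordered KO, control, KD without overlap at that distance. The bin was named for the smallest p of 2316 bins. With a KO or KD library left out, the residual spread comes from the other group alone, so that such fits are no further check of this bin. The next were chr3:140000001-141000000, with -2.15 in the control, -1.96 and -1.88 in KO, and -2.31 and -2.23 in KD, and chr6:104000001-105000000, with -1.48 in the control, -1.78 and -1.71 in KO, and -1.41 and -1.43 in KD. The smallest p in KO against the control included chr3:165000001-166000000, with -1.74 in the control, -1.99 and -2.02 in KO, and -1.74 and -1.76 in KD. In KD against the control they included chr17:8000001-9000000, with -1.85 in the control, -1.98 and -2.16 in KO, and -2.16 and -2.16 in KD, and chr1:183000001-184000000, with -1.84 in the control, -1.90 and -1.95 in KO, and -2.09 and -2.03 in KD. None of these bins passed the adjustment.

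Bins were divided into 5 equal classes by the compartment eigenvector, computed from pairs at 5 Mb and over so that local pairs did not enter. Class 1 is the end with few contacts with other chromosomes (B-like) and class 5 the end with many (A-like). Both the eigenvector of a chromosome and its sign were chosen by the ratio of contacts with other chromosomes. The ratio shares the row sum with the local share. The median local share went down from class 1 to class 5 in every library. In the control it was 39.2%, 38.9%, 36.4%, 33.8% and 32.0% in classes 1 to 5. In KO it was 41.3% and 41.8% in class 1 and 32.2% and 31.3% in class 5, and in KD 38.5% and 38.5% in class 1 and 31.0% and 31.0% in class 5. The median slope in the control was -1.78 in class 1, -1.75 in class 2, -1.78 in class 3, -1.90 in class 4 and -2.05 in class 5. Contacts thus fell off faster at the A-like end. Across the 2316 bins, Pearson r with the eigenvector was -0.53 for the mean log2 share and -0.29 for the mean slope, and 0.028 between share and slope.

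Bins called between KO and KD fell mostly at the B-like end on the balanced scale, beside 25.3% over all bins. In class 1, 185 of 464 bins were higher in KO and 1 lower (40.1% called), in class 2 165 and 0 (35.6%), in class 3 105 and 0 (22.7%), in class 4 72 and 4 (16.4%) and in class 5 49 and 5 (11.7%). In recovered contacts 658 of all 2316 bins were higher and 46 lower, and the order of the classes turned. Of 464 bins in class 1, 95 were higher and 9 lower, and of 463 in class 5, 198 were higher and 4 lower. Contacts per bin moved along with this. Relative to the median bin, class 1 gave 1.00 in the control and 0.826 and 0.798 in KO, and class 5 gave 0.939 in the control and 1.12 and 1.10 in KO. Over bins, Pearson r of the KO difference with log2 contacts over the control was -0.74 (n = 2316). The part of contact number in these counts was not tested.

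Some groups of chromosomes differed as well, beside 25.3% of all bins called on the balanced scale and 30.4% in recovered contacts. On the gene-poor chromosomes 4, 13 and 18, 136 of 318 bins were higher in KO than in KD and 0 lower (42.8%), and 65 were higher and 7 lower in recovered contacts. These chromosomes were not alike on the balanced scale. Chromosome 18 had 54 of 58 bins higher (93.1%) and chromosome 4 had 59 of 172 (34.3%). Chromosome 13 had 23 of 88 (26.1%), near the 25.3% over all bins. On the small gene-rich chromosomes 16, 17, 19, 20 and 22, 28 of 235 bins were higher and 5 lower (14.0%), and 108 and 1 in recovered contacts. The 2 scales thus ordered these groups oppositely. On chromosomes 1 to 5, 233 of 920 were higher and 2 lower (25.5%), near the share over all bins, and 237 and 21 in recovered contacts. On the acrocentric chromosomes 59 of 293 were higher and 1 lower (20.5%), and 87 and 7 in recovered contacts. Within 5 Mb of the first or last measured bin of a chromosome 22 of 84 were higher and 1 lower (27.4%), close to 25.3% over all bins, but 54 were higher and 0 lower in recovered contacts, against 30.4% over all bins. Next to unmeasured runs 9 of 33 were higher and 0 lower (27.3%), also near the share over all bins, and 7 and 1 in recovered contacts.

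Single bin pairs were the least certain level. Limma called 0 of 10260 pairs in KO against the control, KD against the control and KO against KD (0% each), with 715, 352 and 1688 at an unadjusted p under 0.05 and smallest adjusted p of 0.712, 1.00 and 0.222. Without KO replicate 2, 2227 pairs were called between KO and KD. The SD of the log2 difference between the KO replicates was 0.129 at 1 Mb and 0.353 at 4 Mb, and 0.040 and 0.163 between the KD replicates. Pairs that differed by over 1 log2 between the KO replicates numbered 0, 3, 19 and 27 at 1, 2, 3 and 4 Mb, and 0, 0, 1 and 0 between the KD replicates.

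For pairs, signal is given as log2 over the median pair of the same distance in the same library. The smallest p between KO and KD came from the pair of chr10:79000001-80000000 and chr10:83000001-84000000, with -1.44 in the control, -0.77 and -0.65 in KO, and -1.75 and -1.81 in KD. Its limma difference of log2 signal was 1.19 (adjusted p = 0.222). The pair of chr16:64000001-65000000 and chr16:67000001-68000000 had -1.98 in the control, -1.30 and -1.26 in KO, and -2.30 and -2.32 in KD. Both are weak pairs that were less weak in KO and weaker in KD than in the control. Next was the pair of chr8:142000001-143000000 and chr8:146000001-147000000, with -0.55 in the control, -0.48 and -0.26 in KO, and -1.36 and -1.28 in KD, from 29, 34, 30, 17 and 28 contacts. It is 1 of the pairs behind the slope of that bin.

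Against the control, the smallest p in KO included the pair of chr3:90000001-91000000 and chr3:94000001-95000000, with -1.21 in the control, -0.50 and -0.35 in KO, and -0.78 and -0.73 in KD, from 21.5, 16, 15, 34.5 and 50.5 contacts. All 4 other libraries lay above the control there. The pair of chr19:18000001-19000000 and chr19:22000001-23000000 had -1.89 in the control, -0.56 and -0.41 in KO, and -1.74 and -1.43 in KD, from 14, 30, 27, 16 and 32 contacts. In KD they included the pair of chr17:8000001-9000000 and chr17:11000001-12000000, with 0.42 in the control, -0.18 and -0.14 in KO, and -0.41 and -0.50 in KD, from 120, 70, 57, 72 and 106 contacts. The control was the highest library at that pair, and with 1 control library its own spread is not known.

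Direct neighbours at 1 Mb ranged widely. The weakest was the pair of chr1:145000001-146000000 and chr1:146000001-147000000, with -3.42 in the control, -3.52 and -3.88 in KO, and -3.52 and -3.70 in KD. The pair that follows it, chr1:146000001-147000000 with chr1:147000001-148000000, was among the 5 strongest, with 1.24 in the control, 1.25 and 1.33 in KO, and 1.18 and 1.20 in KD. The strongest was chr17:80000001-81000000 with chr17:81000001-82000000, with 1.36 in the control, 1.20 and 1.19 in KO, and 1.46 and 1.46 in KD. These pairs kept their sign in all 5 libraries.

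Some pairs at 4 Mb stood out from their distance and were chosen after their values were seen. The pair of chr4:118000001-119000000 and chr4:122000001-123000000, the bins with nearly the flattest slopes, had 3.04 in the control, 2.98 and 3.11 in KO, and 3.003 and 3.06 in KD, from 2916, 1535, 1362, 3267 and 4952 contacts. The pair of chr10:47000001-48000000 and chr10:51000001-52000000 had 3.55 in the control, 3.05 and 3.58 in KO, and 3.37 and 3.49 in KD, from 198, 112, 149, 170 and 301.5 contacts. Both were strong in all 5 libraries. A few pairs parted the KO replicates instead. The pair of chr19:8000001-9000000 and chr19:10000001-11000000 held 66 contacts in the control, 140 and 4 in KO, and 73 and 114 in KD. The pair of chr19:6000001-7000000 and chr19:10000001-11000000 held 21 in the control, 77 and 9 in KO, and 34 and 53 in KD. In both, KO replicate 1 was high and replicate 2 low for its depth. These pairs share the bin chr19:10000001-11000000 and are not independent. A further pair of that bin, with chr19:7000001-8000000, held 35 contacts in the control, 90 and 6 in KO, and 41 and 64 in KD. The pair of chr5:59000001-60000000 and chr5:63000001-64000000 held 92 in the control, 4 and 39 in KO, and 73 and 125 in KD, with KO replicate 1 the lowest of the 5.

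The contrast between pairs of like and of unlike compartment was largest from 2 Mb on. It was taken as the mean log2 signal of A-A and B-B pairs minus that of A-B pairs, over the outer classes 5 and 1, with 7, 53, 87 and 104 A-B pairs at 1, 2, 3 and 4 Mb. At 1 Mb it was 0.63 in the control, 0.58 and 0.57 in KO, and 0.61 and 0.63 in KD. At 4 Mb it was 1.38 in the control, 1.03 and 1.25 in KO (1.14 ± 0.16, SD, n = 2), and 1.44 and 1.51 in KD (1.47 ± 0.053, SD, n = 2). Both KO libraries lay below and both KD libraries above the control at 3 and 4 Mb. In recovered contacts the contrast at 4 Mb was 1.34 in the control, 1.01 and 1.22 in KO, and 1.40 and 1.47 in KD, in the same order. The A-B pairs themselves stood at -1.16 log2 over the median pair at 4 Mb in the control, -0.81 and -0.98 in KO, and -1.17 and -1.23 in KD, so that unlike pairs were less depleted in KO. The contrast is given as values and was not tested.

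The spread of signal among pairs followed the same order at 4 Mb. The SD of log2 signal at 4 Mb was 0.764 in the control, 0.647 and 0.740 in KO, and 0.812 and 0.828 in KD. At 1 Mb it was 0.437 in the control, 0.451 and 0.475 in KO, and 0.450 and 0.455 in KD, so that the groups did not part in this order between direct neighbours. The KO libraries are the shallowest of the 5, and the part of depth in this SD was not tested.

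**Figure D5:**
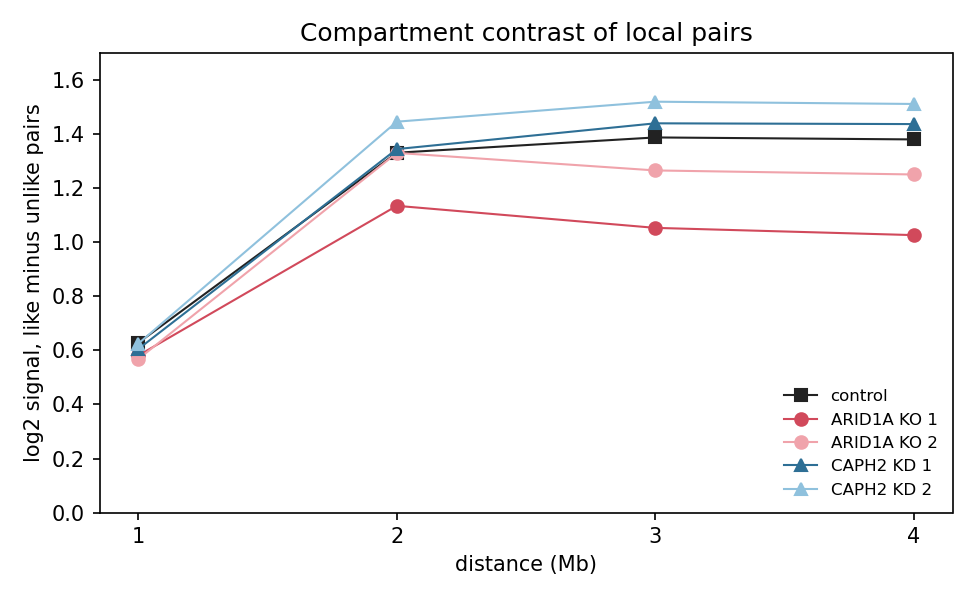
Mean log2 signal of like (A-A and B-B) minus unlike (A-B) bin pairs (y axis) at 1, 2, 3 and 4 Mb (x axis, Mb), with 1 line per library. At 4 Mb the KO libraries lie at 1.03 and 1.25, below 1.38 in the control, and the KD libraries at 1.44 and 1.51, above it.

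Local contacts were also set against longer and shorter ones on the same chromosome. The ratio of signal at 1 to 4 Mb over that at 10 to 50 Mb was above the control on all 22 chromosomes in both KO and both KD libraries, with a median log2 difference of 0.20 in KO and 0.15 in KD. Limma called 0 of 22 chromosomes in KO against the control, KD against the control and KO against KD (0% each), with 6, 1 and 0 at an unadjusted p under 0.05. On chromosome 18 the ratio was 2.49 in the control, 2.99 and 3.46 in KO, and 2.85 and 2.84 in KD. On chromosome 22 it was 5.67 in the control, 5.84 and 7.70 in KO, and 7.20 and 7.05 in KD. KO replicate 1 lay below replicate 2 and nearer to the control on both. Without KO replicate 1 limma called 22, 22 and 21 chromosomes in the 3 comparisons, and without replicate 2 20, 22 and 20. The KD and KO comparisons share the control, so that their common direction is not independent. These ratios are of balanced signal. In recovered contacts both KO libraries lay above the control on 17 chromosomes and on either side of it on 5. Both KD libraries lay above it on all 22.

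The ratio of signal at 1 to 4 Mb over that within a bin was below the control on all 22 chromosomes in both KO and both KD libraries. The median log2 difference was -0.19 in KO and -0.055 in KD. Limma called 0 of 22 chromosomes in KO against the control, KD against the control and KO against KD (0% each), with 1, 0 and 0 at an unadjusted p under 0.05. Without KO replicate 1 it called 22, 0 and 22. Chromosome 19 had 0.643 in the control, 0.593 and 0.459 in KO, and 0.612 and 0.598 in KD. Contacts within a bin made up 28.5% of the row sum in the control, 30.3% and 33.6% in KO, and 28.6% and 29.1% in KD, so that KO replicate 2 stood highest. Once they are counted in the denominator, the mean local share of KO no longer lies above the control, with a difference of -0.392 percentage points. The KO libraries then split, with replicate 1 still above the control and replicate 2 below it.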

How the data were processed

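In situ Hi-C of 5 libraries was deposited as 1 symmetric matrix of 1 Mb bins per library. The submitters' processing notes name Bowtie2 and the build hg19. Not given in the sources used here are the version, the read filters and the program that balanced the matrices. Deposited values are balanced signal, as read from the values: 94.9% to 96.5% of row sums lay within 0.1% of the median, and common row sums differ between libraries, so only shares within a library were compared. Balancing also acts on copy number. Whole contacts were recovered by estimating a factor per bin, with a final pass, chosen after differences between libraries were seen, that replaced factors off by 2, 3 or 4. Over all nonzero values 98.1% to 99.1% came out whole within 0.05. Of local values 56.6% to 67.0% did, and 98.6% to 100.0% were whole or midway. A factor off by a whole divisor cannot be seen this way.

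Shares, slopes (log2 mean signal on log2 distance) and pairs (log2 signal over the geometric mean of both row sums) were fitted with limma 3.58.1 (lmFit, eBayes, R 4.3.3), with all 5 libraries in 1 fit with 2 residual degrees of freedom. Benjamini-Hochberg adjustment over all features of a comparison was used, and a feature was called at an adjusted p under 0.05. Scripts used Python 3.11.15, numpy 2.4.6, pandas 2.3.3 and scipy 1.17.1, and the fits were tested on simulated data. Per chromosome, 1 of the leading 3 eigenvectors was chosen by its correlation with the ratio of contacts with other chromosomes, which also set its sign. The eigenvector of rank 2 was taken on chromosomes 15 and 17. The correlation was lowest on chromosomes 20 (r 0.42) and 22 (r 0.44). Named were, per comparison, the 3 chromosomes with the highest and the 3 with the lowest differences, the 5 largest rises and falls among called bins or else the 3 smallest p (bins and pairs), and the 5 highest and lowest levels, of which some are left out for brevity. The members, lists and tests were chosen with earlier results of these data known. Replicate numbers are shared by KO and KD, but the labels give no shared origin. Alternatives were recovered contacts, 2 other denominators, other partners, distances, centring, low bins, the replicate block and single libraries left out. The averaged KD libraries and a crossed block were added after the data were seen. Without an annotation of hg19, genes in the bins were not analysed here.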

Additional observations from a re-analysis of the deposited data

How the results depend on the processing

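Single features picked per comparison by the naming rule were refitted under each alternative. Not all of them are printed above, and features chosen only by level or after values were seen were not counted. Of the comparisons with an alternative, 651 kept their direction and side of the threshold, and 118 fell below it. A further 80 rose above it and 52 turned direction. Causes were not tested. With pairs at 2 to 4 Mb only, the local share differed by 0.164 (KO minus control), -0.293 (KD minus control) and 0.457 (KO minus KD) percentage points, and the genome slope by 0.0075 (turned) and -0.039 for KO and KD against the control. Calls were then 0 and 0 for chromosome shares (KO minus control, KO minus KD), 0 for bin shares and 1 for chromosome slopes (KO minus KD). Slopes of KO minus KD turned on chromosomes 13 (0.0043) and 4 (0.020), and the share at chr19:11000001-12000000 (0.051). With the KD libraries averaged, KO minus KD had 6 chromosome, 0 bin share and 1 bin slope calls, and KO minus control 3 chromosome calls. Centred per library, KO minus control had 5 and KO minus KD 4 chromosome calls, with 0 bin share, 1 bin slope and 2 chromosome slope calls in KO minus KD. Chromosome shares then turned on 17 (-0.058) and 22 (-0.083) for KO minus KD and on 2 (0.012), 4 (0.0099) and 7 (0.012) for KD minus control, and slopes of KD minus control on 13 (0.015), 18 (0.018) and 2 (0.014).

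In recovered contacts the local percent differed by 0.0546 (KO), -0.579 (KD) and 0.633 (KO minus KD), and the genome slope by -0.0129 (KD) and -0.029 (KO minus KD, turned), with 1, 3 and 12 chromosome calls. Chromosome shares turned on 11 (-0.0086) and 22 (0.051) for KO minus control and on 19 (0.066) for KO minus KD, bins at chr19:11000001-12000000 (0.025), chr19:4000001-5000000 (0.115) and chr19:45000001-46000000 (0.068), and slopes on 1 (-0.016, KO) and on 13 (0.0083) and 18 (0.0048) for KD. With the diagonal in the row sum the local percent differed by -0.392 (KO, turned), -0.649 (KD) and 0.257 (KO minus KD), with 1 and 0 chromosome calls and 0 bin calls, and chromosome shares turned on 11 (-0.016, KO) and on 17 (-0.026) and 22 (-0.053, KO minus KD). With the same-chromosome row sum it differed by 2.56 (KO), 1.58 (KD, turned) and 0.984 (KO minus KD), with 0 chromosome and 0 bin calls. There chromosome shares turned for KO on 17 (0.023), 19 (0.028) and 22 (0.039), for KD on 17 (0.035), 19 (0.023), 2 (0.030), 22 (0.060), 4 (0.032) and 7 (0.047), and for KO minus KD on 17 (-0.012), 19 (0.0053) and 22 (-0.021), and bins at chr15:44000001-45000000 (0.0079, KD) and chr19:45000001-46000000 (0.0037, KO minus KD). With median in place of mean signal the genome slope of KD differed by -0.032, and slopes turned on 1 (-0.016, KO), on 21 (0.015, KO) and on 21 (0.0100, KO minus KD). Without low bins the genome slope of KD differed by -0.0186.

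The replicate numbers do not pair the samples by the labels. Differences between replicates 1 and 2 in KO and KD had r of 0.046 over bin shares, 0.040 over bin slopes, -0.26 over chromosome shares and 0.34 over chromosome slopes. With the replicate block, KO minus KD had 169 bin share, 72 bin slope and 3 chromosome-by-distance calls, and slopes of KD turned on 13 (0.015), 18 (0.0066) and 2 (0.018). With the crossed block KO minus control had 3 chromosome calls.

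With single libraries left out, the local percent ran from 1.18 to 1.31 (KO), -0.800 to -0.718 (KD) and 1.94 to 2.07 (KO minus KD), and the genome slope from -0.0605 to 0.0262, -0.0190 to -0.0188 and -0.0416 to 0.0451. In the order KO, KD and KO minus KD, calls ran from 3 to 21, 0 to 22 and 6 to 22 for chromosome shares, 0 to 74, 0 to 74 and 0 to 84 by distance, 0 to 22, 0 to 15 and 0 to 20 for chromosome slopes, 0 to 1564, 0 to 969 and 0 to 1784 for bin shares, 0 to 675, 0 to 3 and 1 to 1161 for bin slopes, 0 to 0, 0 to 0 and 0 to 2227 for pairs, 0 to 22, 0 to 22 and 0 to 21 for the ratio to 10 to 50 Mb, and 0 to 22, 0 to 0 and 0 to 22 for the ratio to within a bin. Values that turned ran from -0.018 to 0.036 for the share of chromosome 22 (KO minus KD). For slopes of KO minus control they ran from -0.090 to 0.019 on 7, -0.027 to 0.039 on 1, -0.022 to 0.079 on 17 and -0.035 to 0.12 on 22. For slopes of KO minus KD they ran from -0.067 to 0.0079 on 13, -0.063 to 0.010 on 4 and -0.026 to 0.15 on 20, and for KD minus control from -0.0075 to 0.0055 on 18. Depth limits pairs at 4 Mb most, where the median pair held 99.0 contacts in the shallowest library.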
